A study of Mus musculus with 18 samples.

Results

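The miR-15 and miR-16 family is a set of microRNAs (miRNAs, short RNAs that guide the silencing machinery to messenger RNAs) defined by a shared 5′ end. Its members were taken by name, as the rows miR-15a, miR-15b, miR-16, miR-195 and miR-497, which are 5 of the 583 rows of the table. All 5 had reads in every library. The libraries came from mammary tumours of 18 AKXD recombinant inbred strains, which descend from the inbred mouse strains AKR/J and DBA/2J. Each strain was crossed to the transgenic line FVB/N-TgN(MMTV-PyVT)634Mul, so every animal is an F1 hybrid that carries the polyoma virus middle T antigen under the mouse mammary tumour virus promoter. That promoter drives the oncogene mainly in mammary epithelium, and all 18 groups share it. Small RNA of snap-frozen tumours was pooled to 1 library per strain. There is no group without the transgene, no normal mammary gland, and no second library of any strain, so no difference between 2 strains was tested. The labels used here name neither the number of tumours per pool nor the age of the animals.

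A miRNA pairs with its targets mainly through its seed, bases 2 to 8 from the 5′ end, so miRNAs with the same seed can share many targets. The miR-15 and miR-16 family is known to repress cell cycle and survival genes, among them Ccnd1, Ccne1 and Bcl2. The miR-15a and miR-16-1 hairpins are made from the Dleu2 transcript, whose human counterpart is often deleted in chronic lymphocytic leukaemia. Mature miR-16 is made from a pair of hairpins on different chromosomes, and the sequence alone cannot tell which of them a read came from.

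The mature sequences are shown because they define the family and so that their likeness can be set beside the pattern described here. They were taken from RefSeq (GRCm38.p6), where all 5 members were matched, and capitals mark bases 2 to 8.
miR-15a: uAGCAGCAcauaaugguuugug
miR-15b: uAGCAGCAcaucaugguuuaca
miR-16: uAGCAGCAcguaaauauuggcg
miR-195: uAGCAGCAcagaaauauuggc
miR-497: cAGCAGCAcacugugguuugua

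Bases 2 to 8 were identical in all 5 members, and miR-497 was the only one of the 5 that starts with C and not U. Counted from the 5′ end without gaps, miR-16 and miR-195 shared 19 of 21 positions, miR-15a and miR-15b 18 of 22, and miR-15a and miR-497 17 of 22. By the same count miR-15b and miR-16 shared 14 of 22 positions, and miR-195 and miR-497 shared 12 of 21. No source used here says how reads that fit several members were assigned.

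The hairpins lie in 3 pairs, with positions here on GRCm38.p6 from RefSeq and GENCODE (the submitters' processing notes name mm9, and the table itself has no coordinates). On chromosome 14, minus strand, mature miR-15a lies at chr14:61632075-61632096 and 1 copy of miR-16 at chr14:61631936-61631957. The Mir15a hairpin is in an intron of the noncoding gene Dleu2, and Mir16-1 overlaps an exon of a Dleu2 transcript. On chromosome 3, plus strand, miR-15b lies at chr3:69009775-69009796 and the other copy of miR-16 at chr3:69009918-69009939, both hairpins in an intron of Smc4, which encodes a condensin subunit. On chromosome 11, plus strand, miR-497 lies at chr11:70234730-70234751 and miR-195 at chr11:70235062-70235082. Mir195a overlaps no other annotated gene, and Mir497 overlaps only Mir497b on the opposite strand. The hairpins of each pair are separated by 54 bases (Mir15a and Mir16-1), 66 bases (Mir15b and Mir16-2) and 241 bases (Mir497 and Mir195a).

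Some features of the libraries bear on every value. Between 4358311 (strain 7) and 14946857 (strain 27) miRNA reads stood in a library, and levels are given as reads per 1000000 miRNA reads after scaling by the trimmed mean of M values (CPM). On the first principal component of the 281 miRNAs tested (mean of at least 10 CPM), which held 27.6% of the variance, strains 10, 13, 14 and 20 were the 4 lowest. The same 4 strains had the 4 lowest scaling factors, down to 0.671 in strain 14. The summed epithelial markers (the miR-200 family, miR-203 and miR-205), the miRNAs of the labelled tissue, were at 32248 CPM (strain 22) to 56697 CPM (strain 25), led by miR-200c. The skeletal muscle markers miR-1, miR-133a, miR-133b and miR-206 summed to 22451 CPM (strain 9) to 302958 CPM (strain 14).

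Among the members, miR-16 was the most abundant and miR-195 the second, in each of the 18 pools. miR-16 was at 1282 ± 375 CPM (SD over strains, n = 18), with a lowest value of 709.8 CPM in strain 16, a median of 1259 CPM and a highest value of 2079 CPM in strain 27. Strains 27, 10, 24 and 14 were the highest for miR-16, and strains 21, 18, 7 and 16 the lowest. miR-195 was at 503 ± 183 CPM (SD, n = 18), from 273 CPM in strain 16 over a median of 498 CPM to 916 CPM in strain 10. The 4 highest values of miR-195 were those of strains 10 (916 CPM), 24 (781 CPM), 13 (732 CPM) and 14 (643 CPM).

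The other 3 members lay close together. miR-497 was at 223 ± 57.3 CPM (SD, n = 18), from 144 CPM in strain 14 over a median of 232 CPM to 319.9 CPM in strain 27. miR-15b was at 200.1 ± 55.2 CPM (SD, n = 18), from 124 CPM in strain 16 over a median of 211 CPM to 305 CPM in strain 27. miR-15a was at 191 ± 48.4 CPM (SD, n = 18), from 112 CPM in strain 14 over a median of 199 CPM to 294 CPM in strain 27. Strain 27 was the highest strain for 4 of the 5 members, while the lowest strain was strain 16 for miR-15b, miR-16 and miR-195 and strain 14 for miR-15a and miR-497.

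Neighbours in that order were compared within the same pools by an exact two-sided sign-flip permutation test on log2(CPM + 1), with 4 comparisons and unadjusted p-values. miR-16 exceeded miR-195 by 1.38 ± 0.31 log2 (SD, 2.61-fold) in 18 of 18 strains, p = 7.63e-06, the smallest that 18 pairs allow. miR-195 exceeded miR-497 by 1.12 ± 0.64 log2 (2.18-fold) in 18 of 18 strains, with the same p. The difference of miR-497 over miR-15b (0.17 ± 0.54 log2, higher in 11 of 18 strains, exact permutation p = 0.214) was smaller than its spread over strains. That of miR-15b over miR-15a (0.06 ± 0.59 log2, higher in 9 of 18 strains, exact permutation p = 0.662) was as well. Without strains 10, 13, 14 and 20 the last of these turned its direction, to -0.20 log2 (exact permutation p = 0.0657), and miR-497 exceeded miR-15b by 0.36 log2 (exact permutation p = 0.00586). Those strains were picked on the first principal component, with which miR-15b had a rho of -0.781. The 2 p-values without them are therefore not independent of that choice. These are levels in libraries, and the efficiency with which each sequence was ligated and amplified was not measured.

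**Figure D1:**
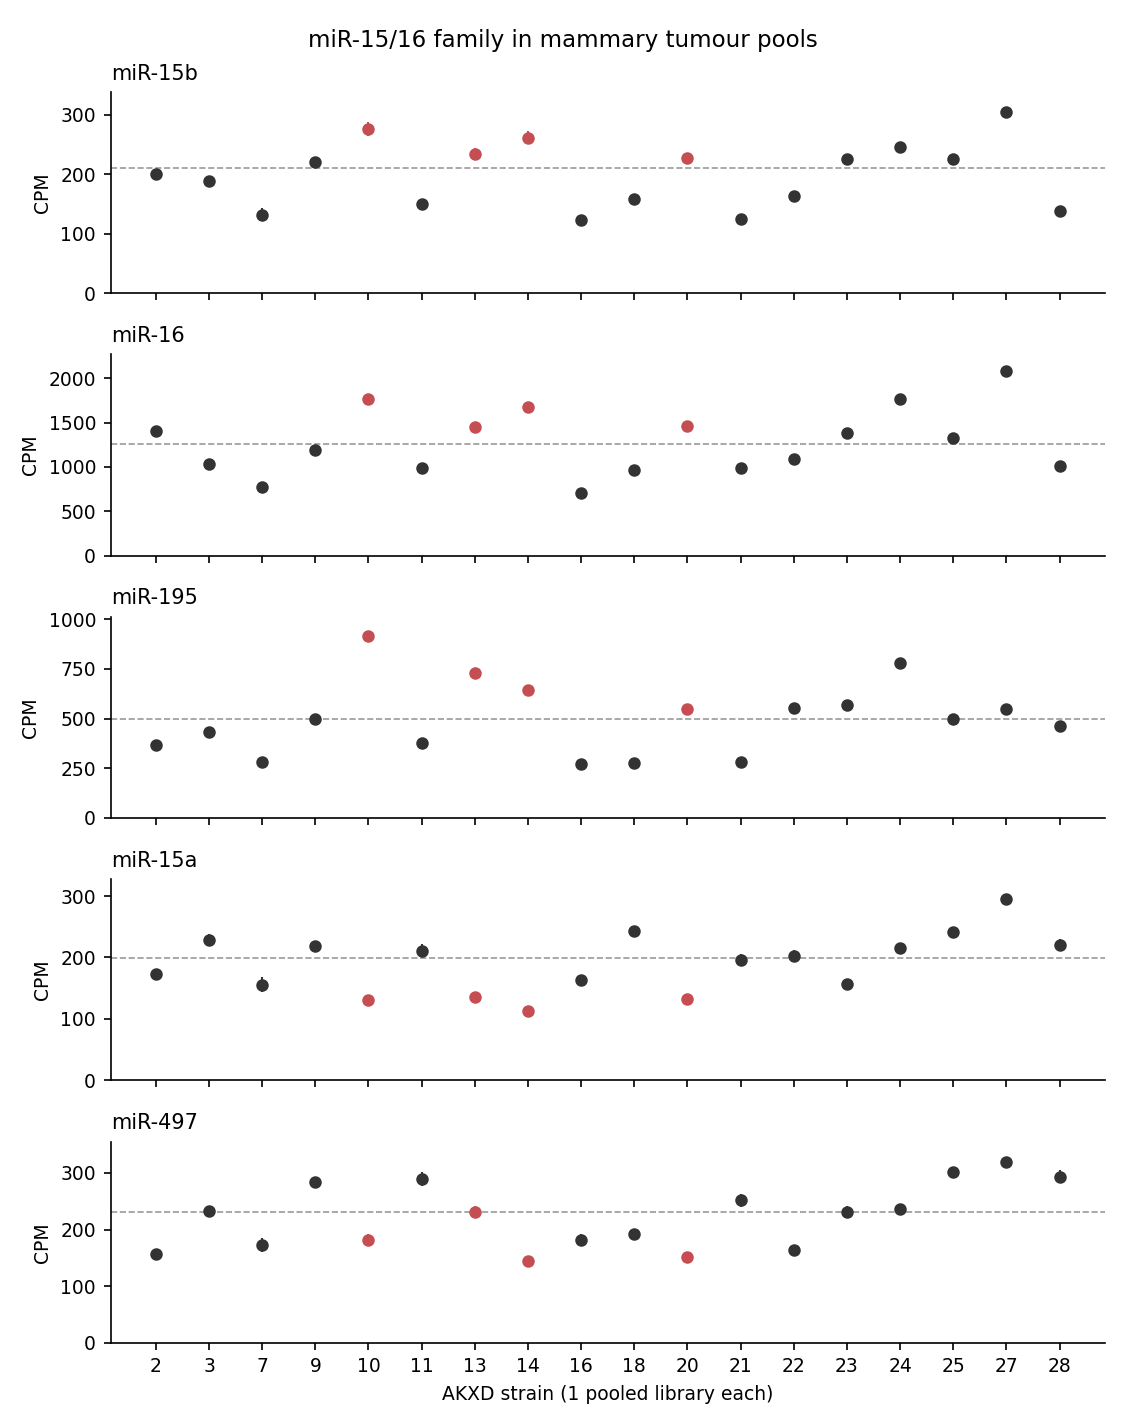
Level of each member in CPM (vertical axes) in each of the 18 strain pools (horizontal axis, strain number). Points are single libraries, error bars are 95% Poisson intervals of the read counts, the dashed line is the median, and strains 10, 13, 14 and 20 are red. For miR-15a the red strains lie at 112 to 136 CPM, below the other 14 strains at 155 to 294 CPM, while for miR-16 they lie at 1453 to 1770.3 CPM, and only strains 24 and 27 of the other 14 are as high. The red strains were picked on the first principal component of the tested miRNAs, and the share of miRNAs without overlap was not counted.

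The spread between strains exceeded read counting by far. The SD of log2(CPM + 1) over strains was 0.53 for miR-195, 0.43 for miR-16, 0.41 for miR-15b, 0.38 for miR-15a and 0.37 for miR-497. Counting alone would give 0.023, 0.014, 0.035, 0.036 and 0.033 in the same order. This spread holds strain, pool and library differences together, which cannot be told apart with 1 library per strain. Set beside all tested miRNAs, whose median SD was 0.45 (quartiles 0.34 and 0.61), the family was of ordinary variability: its members stood between the 35.6th percentile (miR-497) and the 64.4th (miR-195). Ordered by level, 7 of the 17 neighbouring strains had overlapping 95% Poisson intervals for miR-16 and 8 of 17 for miR-195. That number was 13 of 17 for miR-15a and 14 of 17 for miR-15b and miR-497, so for those 3 the order of neighbouring strains is mostly within counting error.

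Over the 18 strains, with libraries scaled as above, the family fell into a group of 3 and a group of 2. miR-15b, miR-16 and miR-195 were high in the same strains, and miR-15a and miR-497 were high in the same strains, while every correlation between the groups was near or below 0. The split is not that of the hairpin pairs, since miR-195 and miR-497 come from 1 locus on chromosome 11 and stood in different groups. Correlations are Spearman's rho on log2(CPM + 1), with a two-sided permutation p (100000 permutations) adjusted by Benjamini-Hochberg over all 39340 pairs of tested miRNAs. At an adjusted p of 0.05, 4 of the 10 member pairs passed with rho above 0, where 1.66% of all pairs did. With rho below 0, 0 of the 10 passed, where 0.996% of all pairs did. With Pearson's r 0 of the 10 passed below 0, where 2.75% of all pairs did. At an unadjusted p 0 of the 10 passed below 0 as well, and the share of all pairs was not counted there. The median rho was -0.0516 over the 10 member pairs and 0.00516 over all pairs. The members' rho with the library scaling factor split in the same way. It was 0.637 for miR-15a and 0.329 for miR-497, and -0.622 for miR-15b, -0.583 for miR-16 and -0.546 for miR-195. With the first principal component it was 0.517, 0.350, -0.781, -0.738 and -0.740 in the same order. The part of the scaling in the split was not tested.

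The closest pair was miR-15b with miR-16, the members that share the Smc4 intron. Their rho was 0.961 (adjusted p = 0.00414, the smallest the permutations can give after adjustment), Pearson's r was 0.938 (permutation p = 1e-05), and r was 0.943 without strains 16 and 21, the farthest from the median of miR-15b. miR-16 and miR-195, the most alike sequences, had a rho of 0.843 (adjusted p = 0.00709) and r of 0.816 (permutation p = 0.00011, and 0.844 without strains 16 and 27). miR-15b and miR-195 had a rho of 0.839 (adjusted p = 0.0120) and r of 0.820 (permutation p = 8e-05, and 0.748 without strains 16 and 21). These 3 pairs passed with each strain left out in turn, with rho between 0.777 and 0.968.

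The pair miR-15a and miR-497 had a rho of 0.738 (adjusted p = 0.0400) and r of 0.709 (permutation p = 0.0012, and 0.629 without strains 14 and 10). Its call depended on single strains. With each strain left out in turn rho stayed between 0.613 and 0.775, but the adjusted p rose above 0.05 without any one of strains 9, 10, 14, 16, 20, 25, 27 and 28, up to 0.143 without strain 14.

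Members made from neighbouring hairpins did not track each other in the other 2 loci. miR-195 and miR-497 had a rho of -0.0795 (adjusted p = 0.901) and r of 0.0226 (permutation p = 0.930). miR-15a and miR-16 had a rho of -0.203 (adjusted p = 0.700) and r of -0.106 (permutation p = 0.674), where the miR-16 value adds the reads of both of its hairpins. The remaining pairs were miR-15a with miR-195 (rho -0.325, adjusted p = 0.490), miR-15a with miR-15b (rho -0.150, adjusted p = 0.789), miR-16 with miR-497 (rho -0.0650, adjusted p = 0.923) and miR-15b with miR-497 (rho -0.0382, adjusted p = 0.957). None of these values shows that a pair is unrelated, and differences between 2 correlations were not tested.

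**Figure D2:**
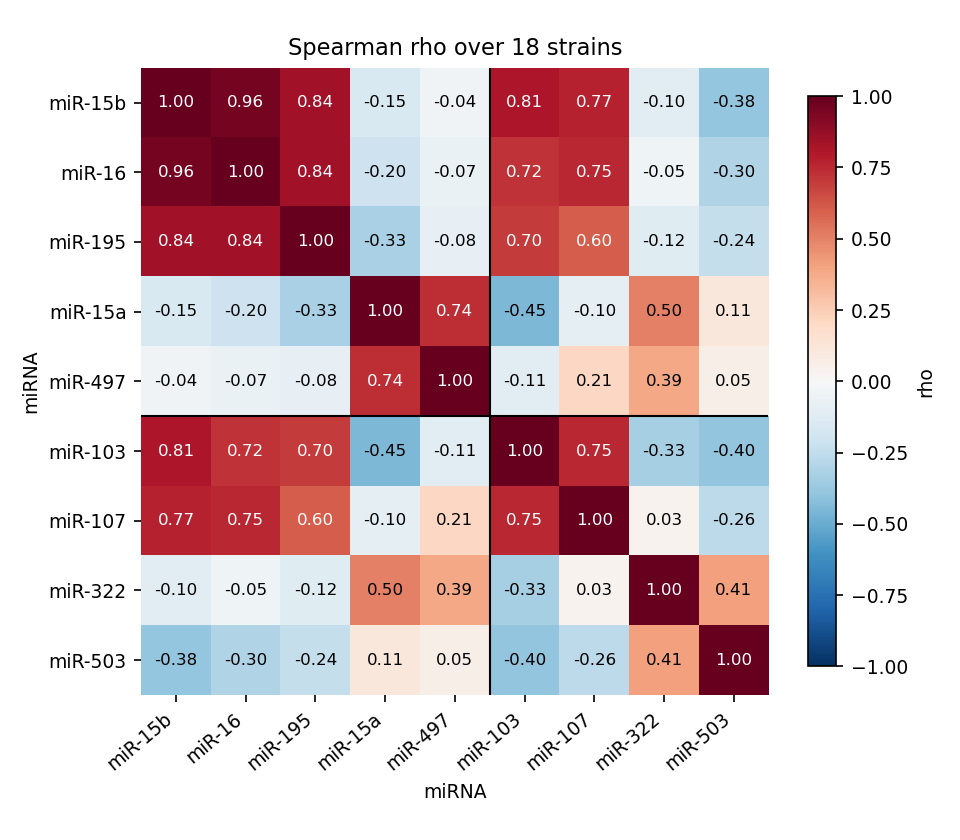
Spearman's rho over 18 strains as a matrix with the 5 members and, past the black lines, 4 miRNAs with a like 5′ end on both axes, and the rho printed in each cell (colour scale from -1 to 1, no unit). The 3 values among miR-15b, miR-16 and miR-195 lie between 0.839 and 0.961 and miR-15a with miR-497 is at 0.738, while the 6 values between those groups lie between -0.325 and -0.0382.

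The values of single strains show the split. Strain 27 was high for both groups, with 2079 CPM of miR-16 and 294 CPM of miR-15a, and strain 7 was low for both, with 775 CPM of miR-16 and 155 CPM of miR-15a. Strain 14 had 1675 CPM of miR-16, the fourth highest, and with 112 CPM the lowest miR-15a. Strain 18 had 971 CPM of miR-16, the third lowest, and with 243 CPM the second highest miR-15a.

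**Figure D3:**
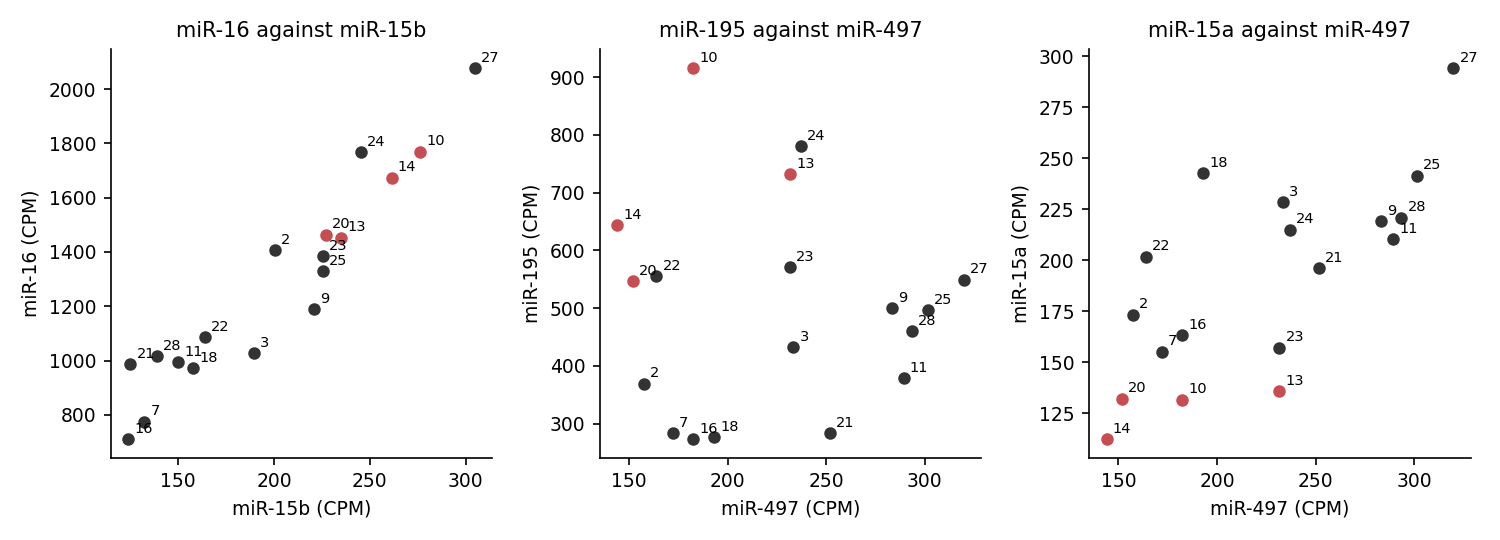
Levels of 2 members against each other in CPM on linear axes for 3 pairs, 1 numbered point per strain pool (n = 18), with strains 10, 13, 14 and 20 in red. miR-15b rises with miR-16 along 1 line (rho 0.961), whereas miR-497 shows no common line with miR-195 (rho -0.0795), where strain 10 has the most miR-195 (916 CPM) at 182 CPM of miR-497.

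Strains 10, 13, 14 and 20 were above the median of all strains for miR-15b, miR-16 and miR-195 and were the 4 lowest for miR-15a. In these 4 strains miR-15a was at 112 to 136 CPM (median 132), and in the other 14 at 155 to 294 CPM (median 213), with no overlap. miR-16 was at 1453 to 1770.3 CPM (median 1569) against 709.8 to 2079 CPM (median 1058), miR-15b at 227 to 276 CPM (median 248) against 124 to 305 CPM (median 177), and in each of these 2 members the ranges overlapped. miR-195 was at 547 to 916 CPM (median 688) against 273 to 781 CPM (median 446), again with overlap. miR-497 was at 144 to 232 CPM (median 167) against 157 to 319.9 CPM (median 235), also with overlap. The 4 strains were picked on the first principal component of the tested miRNAs, so a separation in them does not by itself set miR-15a apart. The related miR-103 separated as well, in the other direction, at 11960 to 16495 CPM against 4960 to 11712 CPM. The ranges of the related miR-322, miR-503 and miR-107 overlapped. The share of tested miRNAs without overlap was not counted.

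Within the other 14 strains all 10 member pairs had a rho above 0. Those between the groups were at 0.235 to 0.556, and the 4 pairs called in all strains were at 0.604 to 0.868. There 0 of the 10 member pairs passed the adjusted threshold, and neither did any of the 39621 pairs of tested miRNAs (0%). At an unadjusted p of 0.05, 5 of the 10 member pairs passed with rho above 0, beside 6.05% of all pairs. With strain 28 left out as well, again 0 of the 10 passed, and 0.0404% of all pairs did with rho above 0. With the first principal component removed from all 18 strains, miR-15b with miR-16 alone was called among the member pairs (rho 0.771, adjusted p = 0.0448), where 0.455% of all pairs were called with rho above 0. With libraries scaled by total counts alone, all 10 rho were above 0 and the same number of member pairs, 4, was called, but so were 17.2% of all pairs. The direction of the correlations between the groups therefore depends on these 4 libraries and on the scaling, and the correlations within the groups kept theirs under both. The groups themselves did not stay apart in every setting. With the first principal component removed, pairs between the groups were at 0.224 to 0.624 and pairs within them at 0.604 to 0.771, so the ranges overlapped.

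The sequencing depth moved with miR-15b and miR-16. miR-15b had a rho of 0.876 with the number of miRNA reads in the library (permutation p = 1e-05, adjusted over 281 miRNAs p = 0.00140), the second highest of the 281. Its r was 0.871 (permutation p = 1e-05) and 0.886 without strains 7 and 28. miR-16 had a rho of 0.835 (permutation p = 5e-05, adjusted p = 0.00468) and r of 0.806 (permutation p = 6e-05, and 0.802 without strains 7 and 28), the third highest. miR-195 was at 0.591 and did not pass (adjusted p = 0.0929), miR-15a at -0.0402 and miR-497 at 0.0423 (adjusted p = 0.956 for both). Of all tested miRNAs 5.69% passed with rho above 0. Of the 281, 2.85% passed with rho below 0. These levels are already scaled to the reads of the library.

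With log2 library reads regressed out of every miRNA, miR-15b with miR-16 was at 0.756 (adjusted p = 0.0255), miR-15b with miR-195 at 0.777 (adjusted p = 0.0167) and miR-15a with miR-497 at 0.734 (adjusted p = 0.0352). miR-16 with miR-195 was at 0.674 and no longer passed (adjusted p = 0.0623), and 2.09% of all pairs passed with rho above 0. Within the 14 strains other than 10, 13, 14 and 20 the rho with library reads was 0.868 for miR-15b (adjusted p = 0.0489) and 0.798 for miR-16 (adjusted p = 0.0532), where 1.06% of miRNAs passed above 0. Under scaling by total counts only, the rho was 0.422 for miR-15b and 0.459 for miR-16 (permutation p adjusted to 0.238 and 0.208), where 0.709% of miRNAs passed above 0 and 6.74% below. The labels give no sequencing batch.

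**Figure D4:**
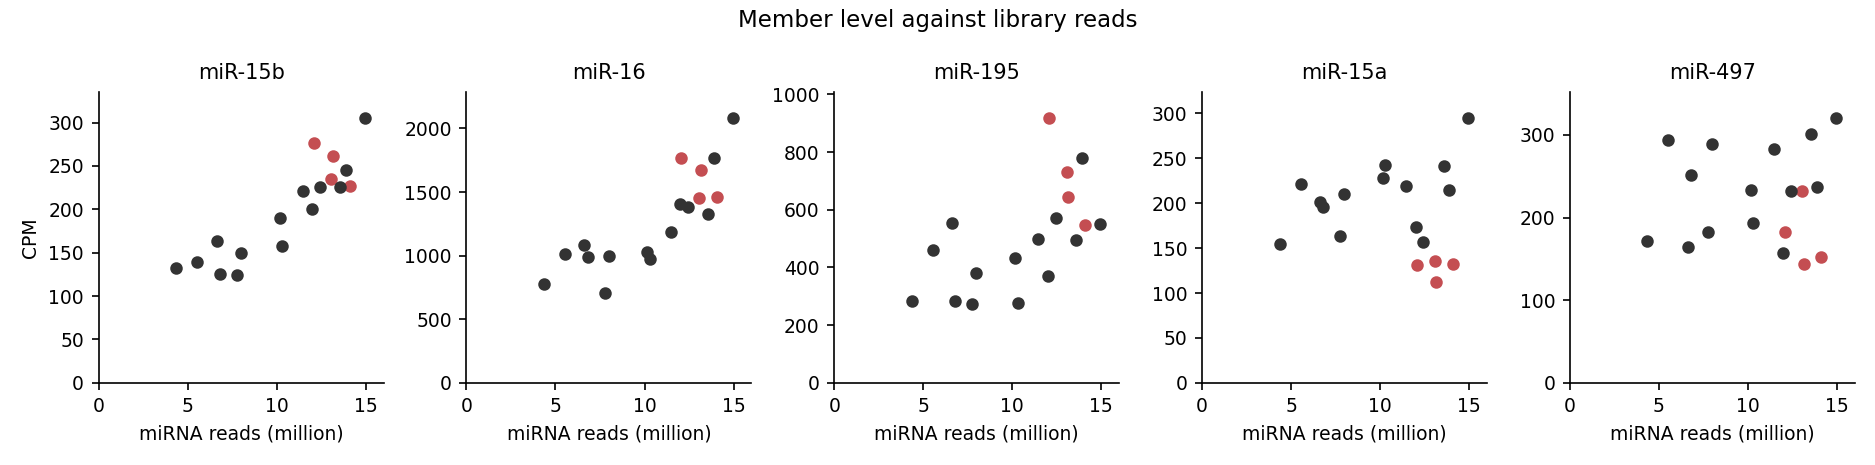
Level of each member in CPM (vertical axes) against the miRNA reads of the library (horizontal axis, tick labels times 1000000), 1 point per strain pool (n = 18), strains 10, 13, 14 and 20 in red. miR-15b (rho 0.876) and miR-16 (rho 0.835) are higher in deeper libraries, and miR-15a (rho -0.0402) and miR-497 (rho 0.0423) show no such order.

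Ratios of 2 members in 1 library do not depend on how libraries are scaled. The log2 ratio of miR-15b to miR-16 was -2.68 ± 0.15 (SD, n = 18), or 0.157 reads of miR-15b for each read of miR-16, from -2.98 in strain 21 to -2.43 in strain 9. Its SD was the second smallest of all 39340 pairs of tested miRNAs. Those of miR-15a to miR-497 (-0.23 ± 0.29), miR-15b to miR-195 (-1.29 ± 0.31) and miR-16 to miR-195 (1.38 ± 0.31) were at the 1.19th, 1.74th and 1.83rd percentile of all pairs.

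Ratios between the groups lay in the middle range of all pairs. The log2 ratio of miR-195 to miR-497, from neighbouring hairpins, was 1.125 ± 0.64 (SD, n = 18), at the 41.9th percentile, from 0.17 (strain 21) to 2.33 (strain 10). The ratio of miR-15a to miR-16 was -2.74 ± 0.60 (35.0th percentile), from -3.90 in strain 14 to -2.0 in strain 18. The ratio of miR-15a to miR-15b, was -0.06 ± 0.60 (34.5th percentile), from -1.22 in strain 14 to 0.67 in strain 28. Strains 14, 10, 20 and 13 had the 4 lowest values of that ratio.

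**Figure D5:**
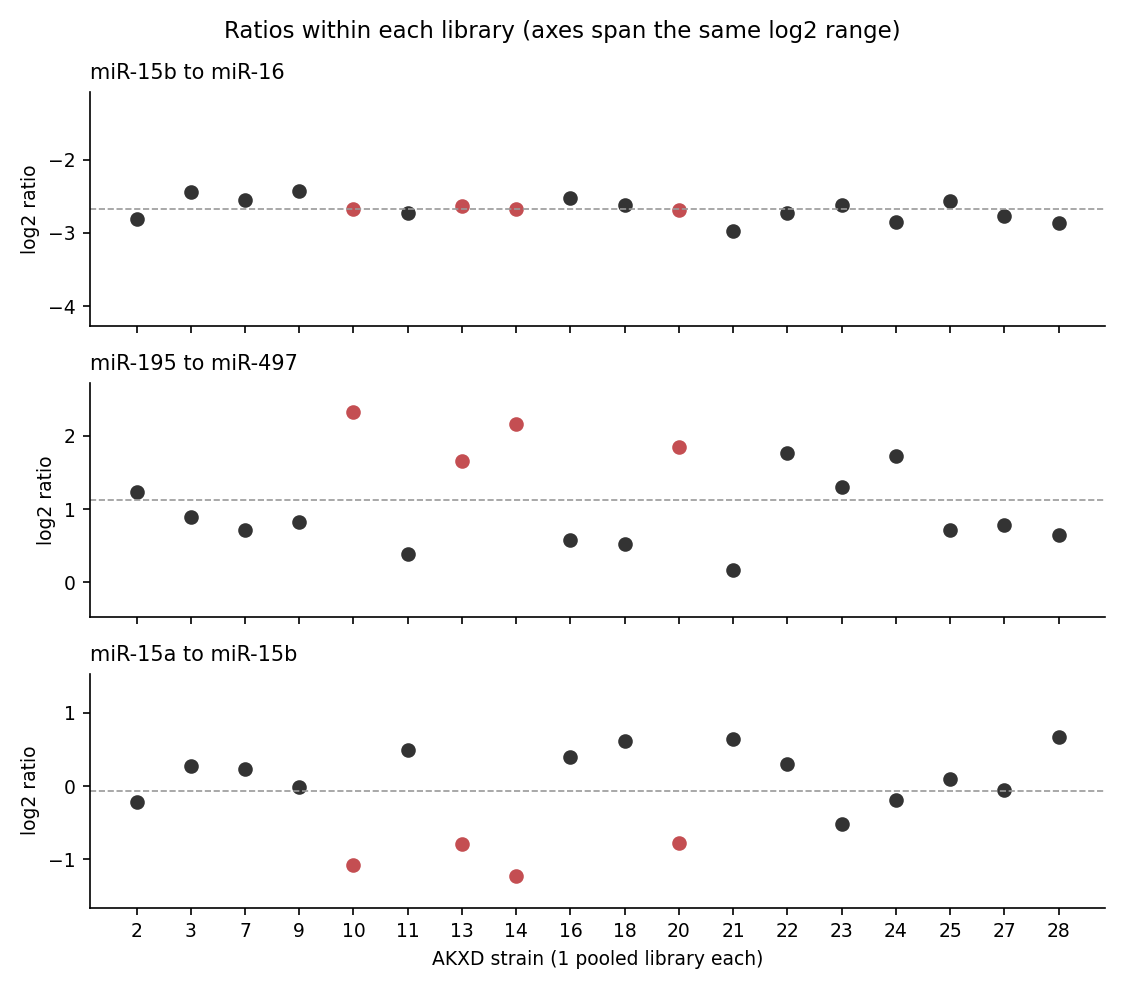
Log2 ratio of 2 members in each strain pool (vertical axes) against strain number (horizontal axis). Points are single libraries, the dashed line is the mean over 18 strains, and strains 10, 13, 14 and 20 are red. miR-15b to miR-16 stays within -2.98 to -2.43, while miR-195 to miR-497 runs from 0.17 in strain 21 to 2.33 in strain 10.

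The sum of the 5 members, which is the amount of this seed that the family supplies, ran from 1452 CPM in strain 16 over a median of 2360.0 CPM to 3547 CPM in strain 27. miR-16 made up 47.7% (strain 28) to 61.0% (strain 2) of it, with a median of 52.4%. The share of miR-195 was 15.0% (strain 18) to 28.0% (strain 10), that of miR-497 5.08% (strain 14) to 14.3% (strain 11), that of miR-15a 3.96% (strain 14) to 13.2% (strain 18), and that of miR-15b 6.52% (strain 28) to 9.22% (strain 14). In strain 14 the shares of miR-15a and miR-497 were the lowest of all strains and that of miR-15b the highest.

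Related miRNAs were taken from a list of 4 with a like 5′ end, and are shown with the same bases in capitals to mark where they depart from the family.
miR-322: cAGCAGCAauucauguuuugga
miR-503: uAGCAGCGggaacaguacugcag
miR-103: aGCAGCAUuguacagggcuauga
miR-107: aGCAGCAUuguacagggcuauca

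miR-322 has the family's bases 2 to 8, and is made with miR-503 from a cluster on chromosome X. It was at 956 ± 221 CPM (SD, n = 18), from 552 CPM (strain 10) up to 1329.8 CPM (strain 28), between miR-16 and miR-195 in mean level. Added to the 5 members, it made up 14.4% (strain 10) to 46.0% (strain 7) of the 6-member sum. miR-503 was at 82.3 ± 20.5 CPM, miR-103 at 9218 ± 3398 CPM and miR-107 at 52.4 ± 41.7 CPM. miR-107 reached 209 CPM in strain 14 and lay at or below 78.9 CPM in the other 17 strains.

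Of the 20 pairs of a member and a related miRNA, 4 passed with rho above 0, against 1.66% of all pairs, and all 4 were miR-15b or miR-16 with miR-103 or miR-107, which are hosted in introns of pantothenate kinase genes. miR-15b had a rho of 0.810 with miR-103 (adjusted p = 0.0139, r 0.782) and 0.771 with miR-107 (adjusted p = 0.0224, r 0.621). miR-16 had a rho of 0.721 with miR-103 (adjusted p = 0.0488, r 0.681) and 0.750 with miR-107 (adjusted p = 0.0366, r 0.607). miR-322, of the same seed, passed with none of the members, and its highest rho was 0.501 with miR-15a (adjusted p = 0.222). With library reads regressed out these 4 values fell to 0.240 to 0.476 and none passed, and with total counts alone they were 0.401 to 0.515 and none passed. With the first principal component removed they were 0.0588 to 0.616, and none passed. Leaving out 1 strain ended the call of miR-16 with miR-103 for 11 of the 18 strains (3, 9, 10, 13, 14, 20, 21, 23, 24, 25 and 27, down to a rho of 0.664). It ended that of miR-16 with miR-107 for 9 (7, 10, 14, 16, 18, 20, 21, 27 and 28, down to 0.662) and that of miR-15b with miR-107 for strains 10, 14 and 27 (down to 0.691).

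The other arm of a hairpin, marked by an asterisk, was much rarer. miR-16* was at 45.0 ± 7.60 CPM (SD, n = 18), from 31.8 CPM (strain 27) up to 57.6 CPM (strain 7), where miR-16 was highest and second lowest. The log2 ratio of miR-16 to miR-16* was 4.79 ± 0.50, from 3.75 in strain 7 to 6.03 in strain 27. miR-16* did not follow miR-16 (rho -0.0258, adjusted p = 0.972, r -0.0409), and its strongest rho with a member was -0.631 with miR-15a (adjusted p = 0.0986). The row name does not say which of the hairpins miR-16* belongs to. miR-15b* was at 6.45 ± 2.86 CPM and miR-15a* at 0.94 ± 0.34 CPM, from 4 to 16 reads per library, and both were below the 10 CPM minimum and not tested.

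Each member was set against the 280 other tested miRNAs, the other 4 members included. miR-15a passed with 20 of them with rho above 0 and 4 below, miR-15b with 15 and 5, miR-16 with 12 and 5, miR-195 with 9 and 4, and miR-497 with 9 and 3. The background is 1.66% above 0 and 0.996% below.

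miR-15b, miR-16 and miR-195 had a common partner, miR-26a, also known as a repressor of cell cycle genes, at a mean of 5738 CPM. Its rho was 0.895 with miR-15b, 0.874 with miR-16 and 0.864 with miR-195 (adjusted p = 0.00414 for each), with r of 0.829, 0.774 and 0.863. The other leading partner of miR-15b was let-7d, of the let-7 family (rho 0.858, adjusted p = 0.00414, r 0.920), and that of miR-195 was miR-214 at a mean of 43.1 CPM (rho 0.860, adjusted p = 0.00414, r 0.842). The lowest partner was miR-345-5p for miR-16 (rho -0.802, adjusted p = 0.0153, r -0.725) and for miR-195 (rho -0.851, adjusted p = 0.00414, r -0.840), and miR-339-3p for miR-15b (rho -0.841, adjusted p = 0.00975, r -0.735). With library reads regressed out, 4 of these calls were lost: miR-16 with miR-26a (0.664), miR-15b with let-7d (0.666), miR-16 with miR-345-5p (-0.465) and miR-15b with miR-339-3p (-0.358). With total counts alone the negative calls were lost, at -0.189 (miR-16) and -0.292 (miR-195) with miR-345-5p and -0.212 for miR-15b with miR-339-3p. Without strain 28 the last pair was at -0.735 (adjusted permutation p = 0.0508). With the first principal component removed none of these partner calls passed: miR-26a was at 0.461 with miR-15b, 0.494 with miR-16 and 0.707 with miR-195, let-7d at 0.750 and miR-214 at 0.748, and the negative ones were between -0.331 and -0.550.

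miR-15a and miR-497 had other leading partners. For miR-15a they were miR-297c (rho 0.886, r 0.831), miR-582-5p (rho 0.886, r 0.851) and miR-136 (rho 0.878, r 0.825), each with an adjusted p of 0.00414 and at mean levels of 20.8, 16.9 and 145 CPM. For miR-497 they were miR-20a (rho 0.845, adjusted p = 0.00709, r 0.763), miR-186 (rho 0.831, adjusted p = 0.0139, r 0.765) and miR-106b (rho 0.773, adjusted p = 0.0208, r 0.741). The lowest partner of both was miR-152, at a mean of 4623 CPM, with a rho of -0.812 with miR-15a (r -0.794) and -0.820 with miR-497 (r -0.775), adjusted p = 0.0139 for each. With total counts alone these 2 values were 0.214 and -0.135, and neither passed. Leaving out strain 14 or strain 20 ended all 4 calls of miR-497, and leaving out strain 27 that with miR-186, with rho no nearer to 0 than 0.684 (miR-186) and -0.718 (miR-152). With the first principal component removed, miR-582-5p alone of these partners was still called, with miR-15a (0.792, adjusted permutation p = 0.0341). Within the 14 strains other than 10, 13, 14 and 20 none of the partner calls passed, and their rho there kept their signs. There 0% of all pairs passed, so the lost calls do not set these pairs apart.

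The clusters that hold miR-17 and miR-92a and that hold miR-106b and miR-25 are known for their link to the cell cycle, and are given here for each member. Of the 9 miRNAs listed, miR-15a passed with 3 (miR-106b at rho 0.876, miR-20a at 0.804 and miR-18a at 0.798, adjusted p = 0.00414, 0.0153 and 0.0167) and had a median rho of 0.614. The first 2 of these were also called with the first principal component removed (0.860 and 0.775), and the third was not (0.618). Within the 14 strains other than 10, 13, 14 and 20 the 3 values were 0.780, 0.60 and 0.499, and none passed, where 0% of all pairs did. Of the same clusters, miR-93 (-0.288) and miR-25 (-0.391) had a rho below 0 with miR-15a and were not called. miR-497 passed with 2, miR-20a and miR-106b, and had a median of 0.486. miR-15b, miR-16 and miR-195 passed with 0 of 9 each, and their medians were -0.273, -0.327 and -0.432. Together 5 of 45 pairs passed above 0, against 1.66% of all pairs, and 0 below, against 0.996%. At an unadjusted p of 0.05 it was 11 above and 10 below, where 10.3% of all pairs passed above 0. The share of all pairs below 0 was not counted there, so the 10 below have no background to be read against. With Pearson's r 8 passed above and 1 below, where 3.42% and 2.75% of all pairs did. In strains 10, 13, 14 and 20, miR-15a was low as given above, and the summed list was lowest in strain 14, at 8221 CPM. The difference between the groups of members was not tested.

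Of the marker lists for other cell types, those for endothelium and for smooth muscle and mesenchyme had called pairs. miR-126-3p, an endothelial miRNA at a mean of 12442 CPM, had a rho of 0.845 with miR-15b (adjusted p = 0.00709, r 0.810) and 0.816 with miR-16 (adjusted p = 0.0139, r 0.814). The other endothelial marker, miR-126-5p from the same hairpin, at a mean of 1327 CPM, had a rho of -0.143 with miR-15b and -0.0630 with miR-16, and passed with none of the members. Thus 2 of 10 endothelial pairs were called above 0, where 1.66% of all pairs were, and the median rho was 0.123. The summed endothelial markers ran from 8284 CPM in strain 16, where miR-15b and miR-16 were lowest, to 22295 CPM in strain 14. With library reads regressed out the calls were lost, at 0.624 (adjusted permutation p = 0.101) and 0.672 (adjusted permutation p = 0.0638), and that of miR-16 was also lost without strain 14, 20 or 27, down to 0.723. With the first principal component removed they were 0.370 and 0.375 and neither passed, where 0.455% of all pairs passed above 0. Within the 14 strains other than 10, 13, 14 and 20 they were 0.727 and 0.692 and neither passed, where 0% of all pairs did.

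Of the 20 pairs with smooth muscle and mesenchyme markers, with 4 of 5 markers tested, 1 passed above 0 and 1 below. Of all pairs 1.66% passed above 0 and 0.996% below. The pair above 0 was miR-195 with miR-214, as above, and that below was miR-15a with miR-143 (rho -0.808, adjusted p = 0.0146, r -0.785). The median rho of the 20 pairs was 0.314, and the summed list ran from 16116 CPM (strain 3) to 60942 CPM (strain 14), led by miR-143. miR-15a with miR-143 was not called without strain 14 (-0.686, adjusted permutation p = 0.0862), without strain 20 (-0.711) or with total counts alone (-0.323). The other markers of the list did not all share that direction: miR-15a had a rho of 0.447 with miR-145, 0.315 with miR-199a-3p and -0.150 with miR-214, none of them called. Nor did they with miR-195, which had a rho of 0.482 with miR-143, 0.313 with miR-199a-3p and -0.465 with miR-145, none of them called. The part of endothelial and mesenchymal cells in these correlations was not tested. In bulk tumour RNA, fewer cells of a type and less RNA per cell cannot be told apart.

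The other lists had 0 called pairs in either direction, where 1.66% of all pairs were called above 0 and 0.996% below. With skeletal muscle markers it was 0 of 20 (median rho -0.0186, and 0 at an unadjusted p of 0.05 and 0 with Pearson's r). With erythroid markers, led by miR-451 at 308.5 CPM, it was 0 of 15 (median 0.228, 2 above 0 unadjusted, 0 with Pearson's r). With leukocyte markers, led by miR-142-3p at 4994 CPM, it was 0 of 25 (median 0.0464, 2 above 0 unadjusted, 0 with Pearson's r). With epithelial markers it was 0 of 35 (median 0.162, 10 above and 4 below 0 unadjusted, 2 above with Pearson's r). Their most abundant miRNA, miR-200c, had a rho of 0.711 with miR-195 (adjusted permutation p = 0.0506) and 0.695 with miR-15b (adjusted permutation p = 0.0564). It had 0.579 with miR-16, -0.418 with miR-15a and -0.282 with miR-497. Of all pairs 10.3% passed above 0 at an unadjusted p of 0.05, and with Pearson's r 3.42% passed above 0 and 2.75% below. The share of all pairs below 0 at an unadjusted p was not counted, so the 4 epithelial pairs below 0 have no background.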

How the data were processed

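Small RNA libraries of 18 strain pools were read on the Illumina Genome Analyzer IIx (series' design text) from RNA isolated with the mirVana kit, per the labels' protocols. The submitters' processing notes name BWA and mm9, without version or role. The counter, miRNA annotation and rule for reads that fit several miRNAs are not stated in any source used here. The authors deposited 1 table of 583 miRNA rows as log2 values with 2 decimals. From the values, each value, taken off the log scale, is 1 library constant multiplied by an integer read number. This was so within 0.006 log2 for 3818 of 3818 values of up to 50 reads (100%), so reads and 95% exact Poisson intervals were recovered. Intervals cover counting error only, and reads without molecular identifiers are not independent molecules.

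Rows with identical values (20) were counted once, leaving 571. Libraries were scaled by the trimmed mean of M values (trims of 30% and 5%) and set to CPM, and log2(CPM + 1) was used. Tests ran on the 281 rows whose mean reached 10 CPM. Spearman's rho and Pearson's r of all pairs had two-sided permutation p-values (100000 permutations) with Benjamini-Hochberg adjustment over all pairs. The calculations used Python 3.11.15, numpy 2.4.6, pandas 2.3.3 and scipy 1.17.1, and were tested on simulated data.

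Named were the members, for each member the 3 miRNAs of highest rho and the 1 of lowest, other hairpin arms, related miRNAs, the most abundant miRNA of each list, and every called pair of a list. The last of these, as well as miR-20a, miR-18a, miR-106b and miR-214 as list members, were chosen after their values were seen. Members and lists were chosen with earlier results of these data known. Each strain is 1 pool, so the permutation p-values rest on the spread between these libraries, part of which may be technical. Alternatives were other scalings, pseudocounts, filters, treatment of identical rows, Pearson's r, removal of the first principal component, strains left out, and, chosen after seeing the data, regression on library reads.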

Additional observations from a re-analysis of the deposited data

How the results depend on the processing

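Each strain has 1 library, so the precision is limited by 18 points and not by depth: the members had at least 540 reads in every library. No paired analysis between strains was possible because each strain is a group of 1 library and the labels give no replicate numbers, so no replicate block could be fitted. The sign-flip comparisons of members are between miRNAs of the same library. The number of called member pairs, 4 of 10, became 1 with the first principal component removed, 0 without strains 10, 13, 14 and 20, 0 when strain 28 was left out as well, and 3 to 4 with each strain left out in turn. With those 14 and 13 strains, 0% and 0.0404% of all pairs were called above 0. The call of miR-15a with miR-497 was also lost with median of ratios scaling (rho 0.674, adjusted p = 0.0597) and with every identical row counted (0.688, adjusted p = 0.0574), and the cause was not tested. With no filter on low values more pairs enter the adjustment at the same rho, and 4 calls were lost: miR-15a with miR-497 (adjusted p = 0.0884), miR-15b with miR-107 (adjusted p = 0.0512), and miR-16 with miR-103 (adjusted p = 0.105) and with miR-107 (adjusted p = 0.0812). With total counts alone miR-15a changed sign with miR-152, from a called -0.812 to 0.214, and with miR-16*, from an uncalled -0.631 to 0.381. Neither was called there. Pairs between the groups of members changed sign as follows, none of them called. With total counts alone miR-15a was at 0.548 with miR-15b, 0.410 with miR-16 and 0.228 with miR-195, and miR-497 at 0.523 with miR-15b, 0.368 with miR-16 and 0.273 with miR-195. With the first principal component removed these member values were 0.624, 0.321, 0.560, 0.290, 0.224 and 0.465. Without strains 10, 13, 14 and 20 they were 0.556, 0.336, 0.235, 0.371, 0.288 and 0.279, and without strain 28 too 0.511, 0.341, 0.302, 0.456, 0.324 and 0.396. miR-497 with miR-15b, miR-16 and miR-195 was at 0.0867, 0.0485 and 0.00103 with upper quartile scaling and 0.0373, 0.0576 and 0.0226 with Pearson's r, and with miR-16 at 0.0299 with median of ratios and 0.0217 with library reads regressed out. With each strain left out in turn these 3 ran from -0.199 to 0.120, -0.218 to 0.0735 and -0.203 to 0.0809. The difference of miR-15b over miR-15a ran from -0.0064 to 0.10 log2 there, was -0.20 without strains 10, 13, 14 and 20 and -0.16 without strain 28 too. miR-497 exceeded miR-15b by 0.36 log2 (exact permutation p = 0.00586) and 0.30 log2 (exact permutation p = 0.0117) without those strains. The choice of strains 10, 13, 14 and 20 came from the same data, so these p-values are not independent of it. The SD of miR-15a over strains was 0.65 with total counts alone, 0.26 without strains 10, 13, 14 and 20 and 0.29 without strain 28 too, and that of miR-497 was 0.58 with total counts alone. The mean ratios moved by less than their SD over strains in every alternative run.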
